A study of Mus musculus with 82 samples.

Results

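Axon guidance ligands and receptors were followed in ribosome-bound RNA of mouse brain after stroke. The genes were 44 members named by symbol, 21 of the semaphorin, plexin and neuropilin families, 12 ephrins and Eph receptors, 5 slits and Robo receptors, 3 of the netrin pathway and 3 of the Nogo pathway. All 44 symbols were found among the 48795 gene identifiers of the deposited count table.

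Guidance ligands are secreted or membrane-bound proteins that steer a growing axon by attraction or repulsion through receptors on the growth cone. Semaphorins act through plexins, with neuropilins as co-receptors for the secreted class 3 members. Ephrins bind Eph receptor tyrosine kinases and can signal back into the cell that carries them, slits bind Robo receptors, and netrin acts through Dcc and the Unc5 family. Nogo, encoded by Rtn4, and the oligodendrocyte myelin glycoprotein Omg both bind the Nogo receptor Rtn4r and are known inhibitors of axon outgrowth in adult white matter.

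The tissue was cut out by laser from frozen mouse brain, and RNA was sequenced from the cleared lysate (input) or from immunoprecipitated ribosomes (IP). Cortex was taken after a cortical stroke and white matter after a white matter stroke, so region and stroke model cannot be told apart in the zones. In each region 5 IP libraries came from sham mice, called uninjured here, and 5 from each of 5 numbered zones after stroke, as the sample labels count them, alongside 5 uninjured input libraries and 3 IP and 3 input libraries of zones 1 to 3 under a joint label. The labels state no distance for a zone number, no time after stroke, no age or strain and no allele or Cre driver, and they tie no library to an animal, so the p-values below measure the spread between these libraries. The series calls the IP libraries astrocyte-enriched, and the summed level of 20 astrocyte markers was 6261 to 11413 CPM in uninjured cortex IP against 1991 to 4889 CPM in its input. In uninjured white matter the ranges overlapped, with 7925 to 12624 CPM in IP and 7998 to 9191 CPM in input.

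The IP libraries still held RNA of other cells. In uninjured cortex IP, 18 neuron markers summed to 15236 to 23536 CPM, and the astrocyte filament gene Gfap stood at 55.3 to 133 CPM beside 3891 to 8176 CPM for the synaptic gene Snap25. In uninjured white matter IP, 16 oligodendrocyte markers summed to 33804 to 55357 CPM. CPM here are counts scaled to a library total of 1000000 outside 6 genes, most of them ribosomal RNA, that took 84.7% of all counts. Those remaining counts ran from 389889 to 5708700 per library, and 5 libraries were shallow (fewer than 10000 genes detected, or fewer than 1000000 of the remaining counts). These were white matter zone 1 replicates 1 and 5, zone 3 replicate 1 and zone 5 replicate 3, and cortex zone 1 replicate 1. White matter libraries scattered far more than cortex libraries, which limits every white matter comparison below. In bulk tissue, fewer cells of a type and less RNA per cell cannot be told apart.

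Of the 44 members, 6 passed the test in at least 1 of the 10 comparisons of a zone with uninjured tissue: the semaphorins Sema4d, Sema6a and Sema6d, the plexins Plxnb2 and Plxnb3, and the ephrin Efnb3. The sequences just before a transcription start are shown for 4 of them, all of which rose in cortex zone 1, and none is shown for Sema6a and Efnb3. They are the 250 bases before a RefSeq start on GRCm38.p6, the first listed where there were several (3 for Sema4d, 2 each for Sema6d and Plxnb2, 1 for Plxnb3), written 5′ to 3′ on the strand of the gene, for Sema4d (chr13:51748811-51749060, minus strand), Sema6d (chr2:124089719-124089968, plus), Plxnb2 (chr15:89180789-89181038, minus) and Plxnb3 (chrX:73756853-73757102, plus). Capitals mark matches on either strand to 4 motifs that were searched: ACAAAG, a core of SOX factor sites, CAGCTG, an E-box, GGGCGG, a GC box, and TTCNNNGAA, a STAT site.
Plxnb3: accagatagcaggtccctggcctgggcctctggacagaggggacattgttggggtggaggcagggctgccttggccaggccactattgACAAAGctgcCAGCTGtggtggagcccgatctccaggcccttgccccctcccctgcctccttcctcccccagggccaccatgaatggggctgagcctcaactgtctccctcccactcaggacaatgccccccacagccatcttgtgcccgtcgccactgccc
Sema4d: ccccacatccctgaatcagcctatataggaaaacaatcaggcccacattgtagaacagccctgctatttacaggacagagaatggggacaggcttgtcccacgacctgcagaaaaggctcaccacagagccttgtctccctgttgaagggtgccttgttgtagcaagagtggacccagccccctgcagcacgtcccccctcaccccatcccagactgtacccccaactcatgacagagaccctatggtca
Sema6d: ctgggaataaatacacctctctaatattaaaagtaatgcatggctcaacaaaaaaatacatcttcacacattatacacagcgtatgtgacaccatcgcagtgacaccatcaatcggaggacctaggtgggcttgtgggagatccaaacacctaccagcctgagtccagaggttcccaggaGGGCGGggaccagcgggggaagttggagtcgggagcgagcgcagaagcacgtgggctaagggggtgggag
Plxnb2: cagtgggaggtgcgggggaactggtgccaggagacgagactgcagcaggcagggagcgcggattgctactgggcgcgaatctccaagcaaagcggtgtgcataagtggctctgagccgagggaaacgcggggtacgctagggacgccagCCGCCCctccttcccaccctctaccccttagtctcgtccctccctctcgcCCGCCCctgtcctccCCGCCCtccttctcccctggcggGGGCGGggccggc
The 4 windows differed in what they held. The Plxnb3 window had 1 SOX core and 1 E-box, 4 bases apart, and 65.2% GC with 3 CpG. Plxnb2 had 4 GC boxes, 3 of them read on the opposite strand as CCGCCC, and 20 CpG, while Sema6d had 1 GC box and Sema4d had no match. The Sema4d window lies inside the annotated gene (51685529 to 51793747, minus strand), at an internal start, and says nothing of its outermost start. No match overlapped another. Among 32851 mouse windows of the same length, 16.5% held a SOX core, 13% the E-box, 32.7% a GC box and 7.02% a STAT site. Of the 36 members with a listed window, 3 held a SOX core, 2 the E-box, 27 a GC box and 1 a STAT site. A match is a string of letters and does not show that a factor binds there.

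The uninjured libraries gave the starting levels. Cortex and white matter carried different guidance genes: 15 of 42 tested members were higher in cortex and 10 were higher in white matter, by edgeR's quasi-likelihood test with Benjamini-Hochberg adjustment at 0.05. Of all 11815 genes tested between these regions, 27.5% were called. The median log2 fold change, cortex over white matter, was 1.34 over the 42 members and -0.23 over all genes, and with DESeq2's size factors the latter became -0.08. The neuron markers moved with the first set, 16 of 18 being higher in cortex. The oligodendrocyte markers moved with the second, 15 of 15 being higher in white matter. Also higher in white matter were 8 of 10 tested oligodendrocyte precursor markers (median log2 fold change -2.48) and 9 of 20 astrocyte markers (-0.99). So were 2 of 11 microglia and macrophage, 2 of 11 endothelial and 1 of 4 mural and fibroblast markers tested. No tested marker outside the neuron list was higher in cortex. The part of these markers in the members' differences was not tested.

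Per kilobase of exon, Rtn4 had the highest median level of the 44 members in both regions, at 69.9 CPM per kb in cortex and 190 CPM per kb in white matter. In cortex Omg followed with 57.6 and Rtn4r with 40.4 CPM per kb, then Sema7a with 29.5 and Ephb6 with 28.5 CPM per kb. Each of these 5 overlapped over libraries with its neighbours in the order. In white matter the order was Rtn4, then Efnb3 with 81.7, Omg with 69.6, Plxnb3 with 65.7 and Sema6a with 64 CPM per kb, and the last 4 overlapped over libraries. Rtn4r stood at 0.566 CPM per kb in white matter. Efna1, an ephrin, was at the bottom in cortex with 1 count over the 5 uninjured libraries, and it passed the count filter in no comparison.

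White matter ligands came from several families. Sema6a, a transmembrane semaphorin that binds class A plexins, read 547, 635, 562, 276 and 600 CPM in the uninjured white matter libraries and 57, 38.8, 45.5, 71.6 and 39.3 CPM in cortex. The lowest white matter library lay far above the highest cortex library, and the log2 fold change was -3.87 ± 0.29 (SE, n = 5 and 5, adjusted p = 1.51e-07). Its relative Sema6d read 589, 406, 697, 555 and 520 CPM in white matter and 92, 83.3, 83.4, 121 and 104 CPM in cortex, a log2 fold change of -3.02 ± 0.22 (adjusted p = 8.34e-08), again without overlap. Sema4d, the ligand of class B plexins, read 142, 171, 141, 135 and 114 CPM in white matter and 40, 43.6, 35.4, 39.1 and 38.8 CPM in cortex. Cortex libraries were all close to each other and all below white matter, and the log2 fold change was -2.36 ± 0.27 (adjusted p = 1.33e-05). Efnb3, a transmembrane ephrin known as a repellent at the midline and in myelin, read 260, 246, 274, 315 and 194 CPM in white matter and 9.99, 10.4, 17.1, 19.4 and 18.4 CPM in cortex. The groups stood far apart, with a log2 fold change of -4.58 ± 0.31 (adjusted p = 5.32e-08).

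Among white matter receptors, Plxnb3 had the lowest adjusted p of all members. Plxnb3 is a class B plexin whose transcript is known from oligodendrocytes. It read 355, 435, 439, 426 and 277 CPM in white matter and 15, 12.3, 15.8, 17.5 and 16.4 CPM in cortex, a log2 fold change of -5.15 ± 0.27 (adjusted p = 8.94e-09). No library of either region came near the other. Plxnb1, a receptor of Sema4d, read 130, 201, 154, 390 and 102 CPM in white matter and 46, 13.3, 27.2, 48.9 and 32.3 CPM in cortex (-3.07 ± 0.46, adjusted p = 0.000138). The Eph receptor gene Ephb1 read 263, 157, 148, 160 and 92.9 CPM in white matter and 45, 40.7, 59.4, 23.6 and 34.3 CPM in cortex (-2.52 ± 0.36, adjusted p = 9.63e-05). Neither gene's groups overlapped.

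Cortex carried more of the 3 class A plexins and of 3 of the 6 Eph receptors. Plxna2, a receptor of class 6 semaphorins, read 253, 283, 270, 292 and 299 CPM in cortex and 48.1, 44.2, 36.9, 68.7 and 89.2 CPM in white matter. The groups did not overlap, and the log2 fold change was 1.75 ± 0.29 (adjusted p = 0.00034). Sema4f, a transmembrane semaphorin, read 31, 36.9, 26.5, 40.1 and 25.4 CPM in cortex and 0, 0, 0.385, 0.367 and 0.366 CPM in white matter. The white matter values rest on 3 counts against 326 in cortex, a ratio of 163 with an exact 95% interval of 55.3 to 795 that covers counting error only (adjusted p = 5.62e-05). The other members higher in cortex were Plxna1 (2.27), Plxna4 (2.11), Plxnd1 (3.20), Sema3e (2.77), Sema7a (2.63), Efna3 (3.89), Efna5 (3.49), Epha4 (2.10), Epha7 (2.60), Ephb2 (3.32), Robo1 (1.42), Slit3 (2.48) and Rtn4r, each given as log2 fold change. Leaving out 1 library ended the call of Robo1 in 5 of 10 fits, of Epha7 in 7 and of Slit3 in 8. The 17 tested members that did not pass were Sema3a, Sema3c, Sema4a, Sema4b, Sema4c, Sema5a, Plxnb2, Nrp1, Nrp2, Efnb1, Efnb2, Epha5, Ephb6, Slit1, Slit2, Robo2 and Dcc. Efna1 and Ntn1 were not tested between the regions.

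The Nogo ligand and its receptor were split between the regions. Rtn4 read 1381, 1157, 1086, 1448 and 1326 CPM in uninjured white matter and 336, 551, 489, 650 and 417 CPM in cortex. White matter was higher in every library, with a log2 fold change of -1.92 ± 0.21 (adjusted p = 7.89e-06). The receptor Rtn4r read 82, 65.3, 73.3, 78.2 and 127 CPM in cortex and 2.43, 0.632, 6.54, 0.367 and 1.1 CPM in white matter (4.75 ± 0.65, adjusted p = 6.23e-05). Cortex was higher in every library here. Omg read 141, 119, 226, 189 and 155 CPM in white matter and 64, 144, 128, 184 and 124 CPM in cortex. Its libraries overlapped, and its log2 fold change of -0.88 ± 0.29 (adjusted p = 0.033) lost its call with DESeq2's size factors (-0.74) and without any of 6 single libraries.

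Netrin genes were low in cortex. Ntn1, the ligand, read 4, 3.79, 3.79, 3.94 and 0 CPM in uninjured cortex and 2.63, 1.26, 49.6, 0.734 and 4.39 CPM in white matter, where 1 library stood far above the rest. The attractive receptor gene Dcc read 19, 49.2, 31, 26.1 and 23.4 CPM in cortex and 39.2, 12, 90.8, 18.4 and 3.29 CPM in white matter (-0.60 ± 0.66, adjusted p = 0.548), with full overlap. Unc5b, a repulsive netrin receptor, read 94.6, 171, 271, 262 and 227 CPM in white matter and 13, 15.1, 11.4, 6.39 and 17.9 CPM in cortex. Its groups lay apart, with a log2 fold change of -4.54 ± 0.40 (adjusted p = 6.81e-07).

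**Figure D1:**
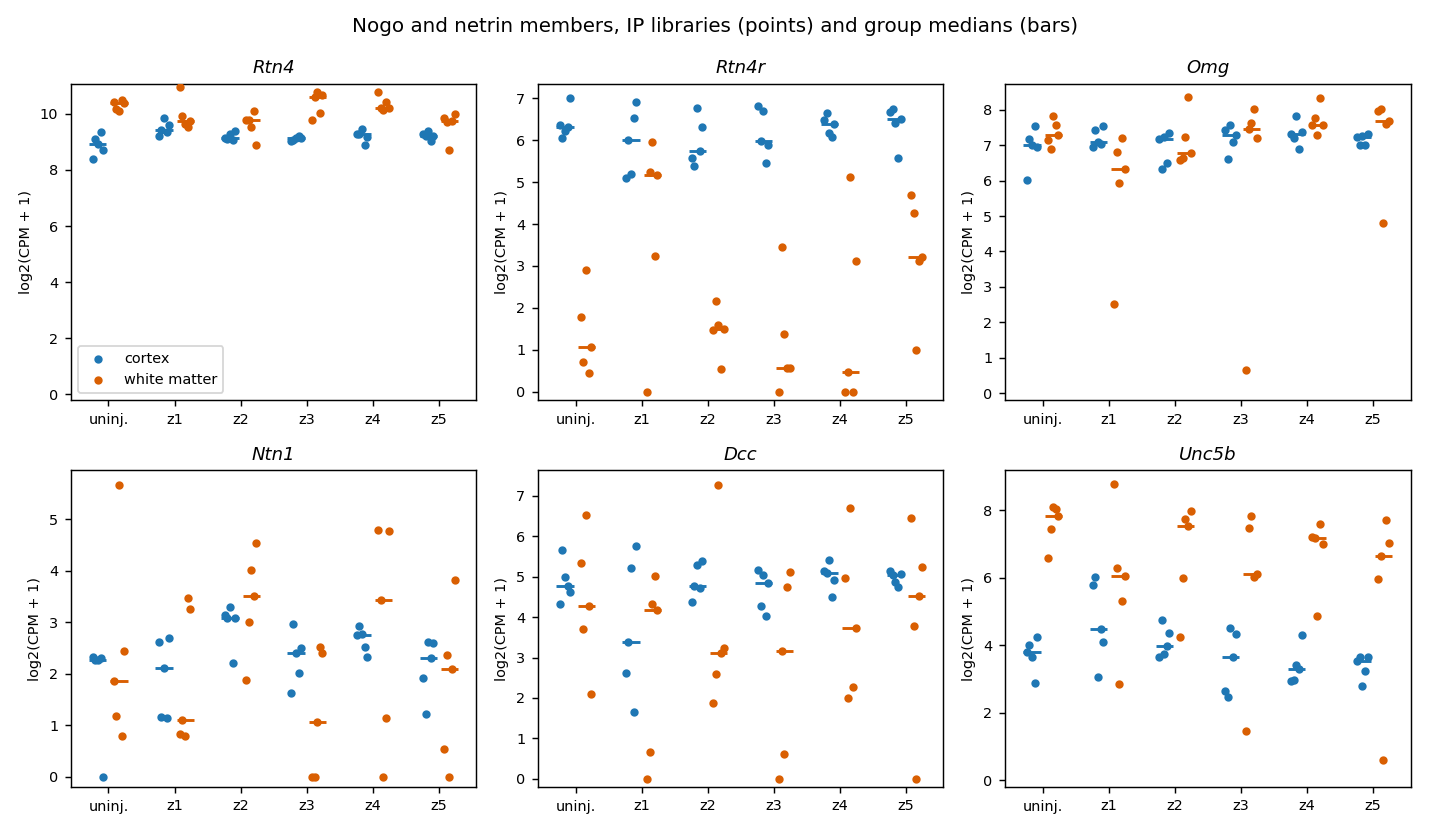
The 3 Nogo genes (top) and 3 netrin genes (bottom) in every IP library of uninjured tissue and zones 1 to 5 (x axis), as log2(CPM + 1) on the y axis, with cortex in blue, white matter in orange and bars at the group medians. Rtn4 was higher in white matter and Rtn4r in cortex of uninjured tissue, and white matter points spread widely in the zones.

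After stroke, cortex zone 1 was the group in which most guidance genes passed the test. Of 42 tested members, 6 rose against uninjured cortex and none fell. Of all 12526 genes tested there, 5.3% were called. Of the 21 semaphorin, plexin and neuropilin genes, 5 rose (Sema4d, Sema6a, Sema6d, Plxnb2 and Plxnb3), and of the 11 tested ephrin and Eph genes 1 rose (Efnb3). No slit, Robo, netrin or Nogo member was called. The median log2 fold change of the tested members was 0.10, and that of all genes 0.07.

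The ligand Sema4d read 151, 242, 149, 138 and 72.1 CPM in cortex zone 1, every library above the uninjured range of 35.4 to 43.6 CPM. It rose by a log2 fold change of 1.89 ± 0.30 (adjusted p = 0.000472). Sema6a read 239, 80.8, 151, 275 and 157 CPM, all above the highest uninjured library at 71.6 CPM (1.76 ± 0.32, adjusted p = 0.00161). Sema6d read 267, 308, 166, 260 and 127 CPM against at most 121 CPM in uninjured cortex (1.17 ± 0.25, adjusted p = 0.00776). The 3 called semaphorins thus left the uninjured range in every zone 1 library, although the lowest Sema6d library only just did. They were named because they passed the test on these same libraries, so this separation is no further support for the calls.

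The ephrin Efnb3 read 53.9, 16.1, 52.9, 90.7 and 47.4 CPM in cortex zone 1. Replicate 2 lay inside the uninjured range of 9.99 to 19.4 CPM and the other 4 above it, with a log2 fold change of 1.73 ± 0.44 (adjusted p = 0.0242). The call was lost without zone 1 replicate 4 (1.37) and without uninjured replicates 1 (1.61), 2 (1.61), 3 (1.78) or 5 (1.73).

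Of the receptors, Plxnb3 had the largest rise among the 42 tested members. Plxnb3 (ENSMUSG00000031385, chromosome X from 73757090 to 73772514 on GRCm38) read 226, 125, 121, 63.4 and 58 CPM in cortex zone 1. The lowest of these lay well above the highest uninjured library at 17.5 CPM, and the log2 fold change was 2.83 ± 0.37 (adjusted p = 6.27e-05). Zone 1 remained below the uninjured white matter range of 277 to 439 CPM. Plxnb2, a class B plexin found in many cell types, read 94.9, 314, 146, 84.3 and 84.4 CPM against 62, 53, 22.1, 32.5 and 33.3 CPM uninjured. Its groups did not overlap, replicate 2 stood out on the high side, and the log2 fold change was 1.81 ± 0.39 (adjusted p = 0.00753). Sema4d, Sema6a, Sema6d, Plxnb2 and Plxnb3 kept their call in zone 1 whichever of the 10 libraries was left out.

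Markers of other cells rose in the same libraries. In cortex zone 1, 13 of 16 oligodendrocyte markers rose (median log2 fold change 2.16), and their summed level was 5609 to 9862 CPM against 1940 to 2695 CPM uninjured. Of 10 tested oligodendrocyte precursor markers 6 rose (summed level of the 11 listed, 715 to 1111 against 320 to 496 CPM), and of 16 microglia and macrophage markers 15 rose (1656 to 3136 against 126 to 316 CPM). Mbp, a myelin protein gene, read 1905 to 3329 CPM against 799 to 1105, Cx3cr1 of microglia 122 to 218 against 18.3 to 51.9, and Pdgfra of precursors 15.4 to 84.8 against 10.1 to 14.2. Of 20 astrocyte markers 3 rose and 1 fell, of 18 neuron markers none rose and 1 fell, of 12 endothelial markers 2 rose and of 5 tested mural and fibroblast markers 1 rose. None of the defining markers was at 0 in a zone 1 or uninjured cortex IP library. The part of these cells in the members' rise was not tested.

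**Figure D2:**
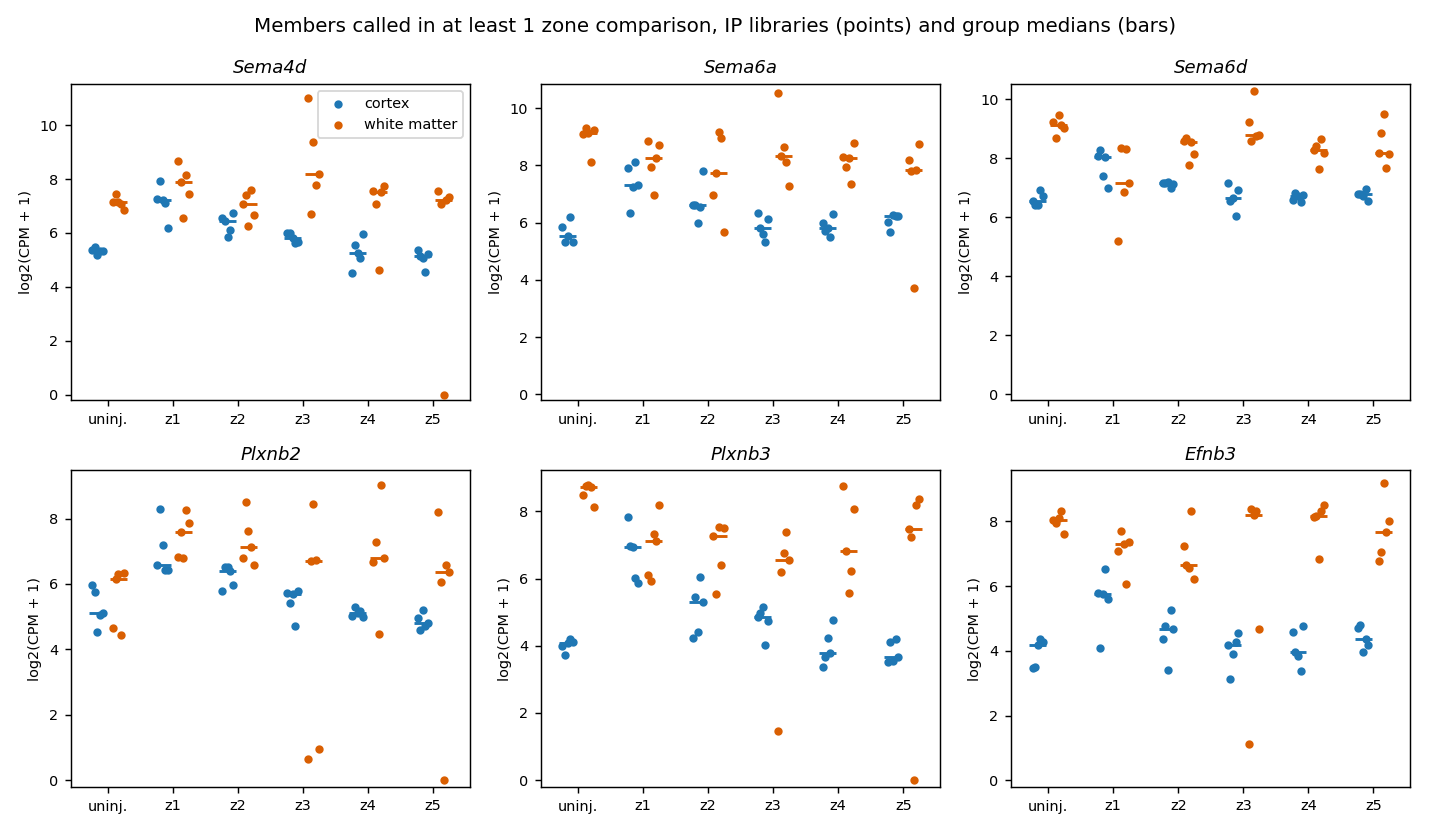
The 6 members called in at least 1 zone comparison, in every IP library of uninjured tissue and zones 1 to 5 (x axis), as log2(CPM + 1) on the y axis, with cortex in blue, white matter in orange and bars at the group medians. Cortex zone 1 points of Plxnb3 (58 to 226 CPM) sit above all 5 uninjured cortex points (12.3 to 17.5 CPM) and below the uninjured white matter points (277 to 439 CPM).

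Cortex zone 2 repeated part of this at smaller size. Of 40 tested members 4 rose and none fell, where 3.64% of all 11713 genes were called. The zones share the uninjured libraries, so their calls are not independent. Sema4d read 93.1, 85.1, 57, 67.7 and 105 CPM in zone 2, all above the uninjured libraries (1.07 ± 0.21, adjusted p = 0.00101). Sema6a read 97.3, 97.8, 62, 92.5 and 222 CPM (1.17 ± 0.26, adjusted p = 0.00886), and its lowest library lay below the highest uninjured library. Both kept the call whichever library was left out.

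The plexins depended on single libraries in zone 2. Plxnb3 read 17.8, 42.8, 20.2, 65.5 and 38.1 CPM, all above the uninjured 12.3 to 17.5 CPM, with a log2 fold change of 1.26 ± 0.33 (adjusted p = 0.0202). Its call was lost without zone 2 replicate 2 (1.21) or 4 (0.93), or without uninjured replicate 2 (1.18) or 5 (1.25). Plxnb2 read 54.4, 90.8, 91, 83.7 and 61.5 CPM (0.97 ± 0.25, adjusted p = 0.0195), and its lowest 2 libraries lay inside the uninjured range. The call of Plxnb2 was lost without zone 2 replicates 2 (0.91), 3 (0.90) or 4 (0.91) and without uninjured replicates 3 (0.85), 4 (0.88) or 5 (0.88). Of the markers, 10 of 15 tested for oligodendrocytes and 14 of 15 for microglia and macrophages rose in zone 2, and summed oligodendrocyte markers were 3763 to 5078 CPM. Astrocyte markers rose in 7 of 20. Their part was likewise not tested.

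In cortex zones 3, 4 and 5 no member was called by edgeR or by DESeq2. The numbers at an unadjusted p under 0.05 were 4 of 41, 5 of 41 and 5 of 42 tested members. Of all genes, 0.0405% were called in zone 3, 0% in zone 4 and 0% in zone 5. Plxnb3 read 28.1, 30.7, 34.9, 15.2 and 25.8 CPM in zone 3 (0.78, adjusted p = 0.646), 9.22 to 26.5 CPM in zone 4 and 10.5 to 17.3 CPM in zone 5, the last within reach of the uninjured values. Sema4d read 63.1, 62.5, 55.5, 48.7 and 49.3 CPM in zone 3, still above every uninjured library, and 22.3 to 40.8 CPM in zone 5. The cohort labelled zones 1 to 3 gave no call either among 42 tested members, by edgeR or DESeq2, with 4 at an unadjusted p under 0.05 and 0.232% of all genes called. There Plxnb3 read 17.5, 24.4 and 8.16 CPM, and summed oligodendrocyte markers were 2045 to 2531 CPM.

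**Figure D3:**
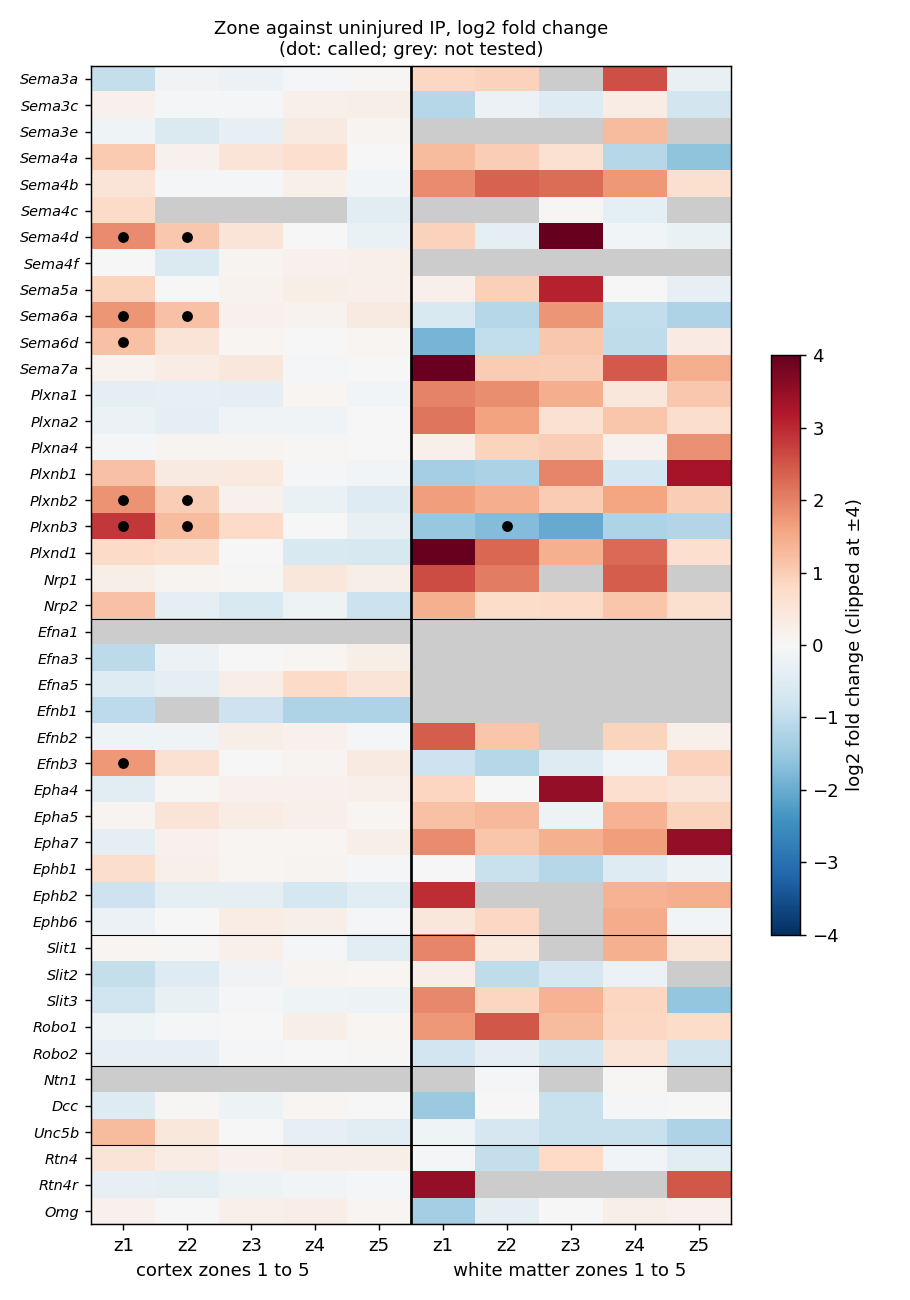
Log2 fold change of each of the 44 members (rows, separated by class) in zones 1 to 5 against uninjured tissue of the same region (columns, cortex left, white matter right), with colour clipped at 4 in either direction, a dot where the edgeR test was passed and grey where a gene was not tested. Cortex zones 1 and 2 hold 10 of the 11 dots, and the colours of white matter are stronger although only Plxnb3 in zone 2 passed.

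Zone 1 was also set against zone 5 of cortex, which uses no uninjured library. Of 43 tested members 8 were higher in zone 1 and none lower, where 7.23% of 13784 genes were called. These were Sema4d (2.17 ± 0.30), Sema6a (1.39 ± 0.29), Sema6d (1.05 ± 0.24), Plxnb1 (1.26 ± 0.32), Plxnb2 (2.37 ± 0.37), Plxnb3 (3.10 ± 0.37), Plxnd1 (1.42 ± 0.30) and Nrp2 (2.10 ± 0.60) as log2 fold changes with SE. Plxnd1 is known as a receptor of Sema3e in vessels and neurons, and Nrp2 as a co-receptor of class 3 semaphorins. The call of Nrp2 was lost in 7 of 10 fits that left out 1 library (1.67 to 2.34), and that of Plxnb1 without any of zone 5 replicates 1 to 4 (lowest value over all fits 1.01). Efnb3, at 53.9, 16.1, 52.9, 90.7 and 47.4 CPM in zone 1 and 25.1, 26.8, 14.6, 19.5 and 17.1 CPM in zone 5, did not pass here. Oligodendrocyte markers were higher in zone 1 in 14 of 16, microglia and macrophage markers in 15 of 15. Some markers of astrocytes (Gfap 3.59, Aqp4 1.70), oligodendrocyte precursors (Gpr17 3.19), endothelium (Vwf 3.21) and fibroblasts (Col1a2 3.64) were higher too. The neuron markers Snap25 (-0.70), Syt1 (-0.50) and Vsnl1 (-0.78) were lower. The part of these cells in the members' differences between zones 1 and 5 was not tested.

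The zone contrast and the contrast of uninjured regions share no library, so their values for the members can be set side by side. All 10 members that were lower in uninjured cortex than in white matter had a positive log2 fold change in zone 1 over zone 5. Of the 15 members higher in uninjured cortex, 2 did. Over the 42 members tested in both, Pearson's r was -0.72 and Spearman's rho -0.71. Over all 11637 genes tested in both it was -0.40 for each, with 1401 of 1734 and 358 of 1410 genes positive. Genes of the same libraries share depth and cell content and are not independent replicates, so these are descriptions. In white matter the same pairing gave r of 0.39 over 34 members and 0.14 over 9539 genes.

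**Figure D4:**
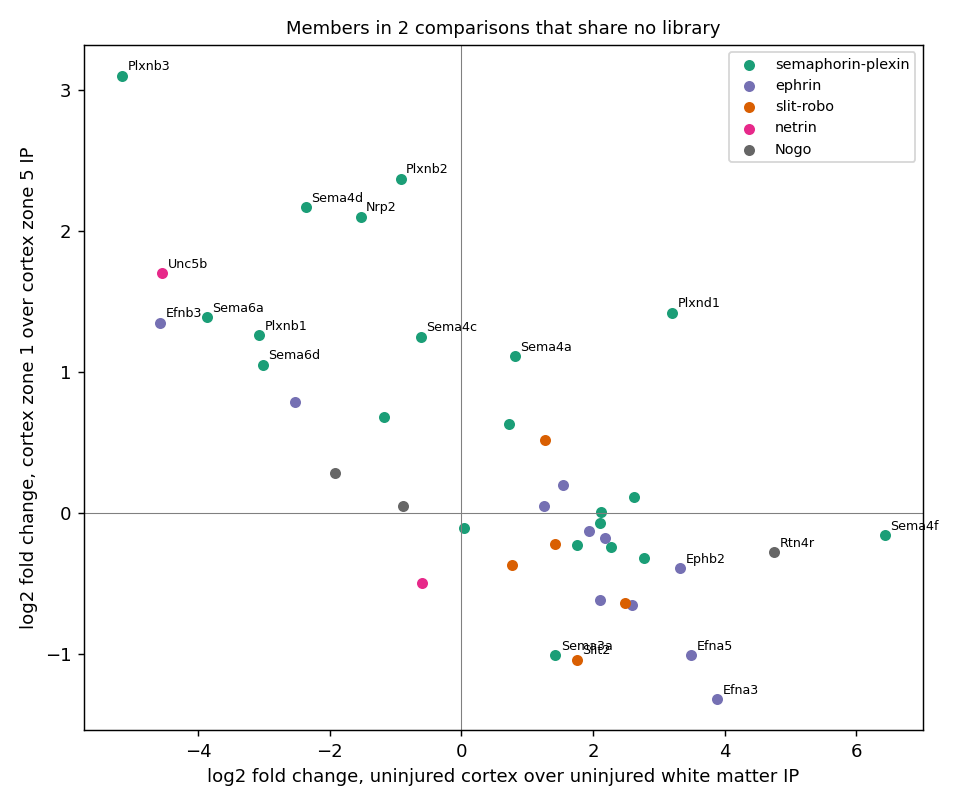
Each point is a member, with the log2 fold change of uninjured cortex over uninjured white matter on the x axis and of cortex zone 1 over cortex zone 5 on the y axis, coloured by class. Members to the left of 0, such as Plxnb3 at -5.15 and 3.10, lie mostly above 0 on the y axis.

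White matter zones gave 1 call. In zone 2, Plxnb3 read 154, 45.4, 185, 83.1 and 181 CPM, all below the lowest uninjured library at 277 CPM. It fell by 1.75 ± 0.42 on the log2 scale (adjusted p = 0.0469), as the only 1 of 35 tested members, where 0.941% of 10522 genes were called. The call was lost without any of 9 of the 10 libraries (-1.50 at the weakest) and with DESeq2's size factors (-1.66), while DESeq2 called 5 members. Of the 16 oligodendrocyte markers 3 fell, with a summed level of 24959 to 51500 CPM against 33804 to 55357 CPM uninjured, and 6 of 18 neuron markers rose, with 3500 to 10776 CPM against 1131 to 3072 CPM. Their part in the fall of Plxnb3 was not tested.

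In white matter zone 1 no member passed edgeR's test among 36 tested, with 10 at an unadjusted p under 0.05. DESeq2 called 5 members there, and 0.45% of all 10438 genes were called by edgeR. Plxnb3 read 67.5, 59.8, 158, 138 and 293 CPM in zone 1, with 1 library inside the uninjured range and 4 below it (-1.52 ± 0.56, adjusted p = 0.221). Sema6d read 35.3, 325, 115, 313 and 143 CPM, every library below the uninjured 406 to 697 CPM (-1.87 ± 0.52, adjusted p = 0.115). Without the shallow libraries 4 members passed, and of the 6 genes followed through every setting these were Plxnb3 (-2.10), Sema6a (-1.68) and Sema6d (-1.60). Sema6d also passed with DESeq2 (-1.77) and without zone 1 replicate 1 (-1.71). Oligodendrocyte markers summed to 8192 to 35450 CPM in zone 1 (1 of 16 fell), neuron markers to 1202 to 18714 CPM (none of 18 called) and microglia markers to 1064 to 4075 CPM (4 of 15 rose).

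Within white matter zone 1, 3 members had a log2 fold change of 3.50 or more without passing the test. Plxnd1 read 121, 117, 75.8, 35.9 and 145 CPM there and 0.606, 13.9, 12.3, 2.94 and 2.19 CPM uninjured. Every zone 1 library was above every uninjured library, with a log2 fold change of 4.07 ± 0.98 (adjusted p = 0.0601). Sema7a, a membrane-anchored semaphorin, read 426, 36.5, 2.89, 22.8 and 128 CPM (3.96 ± 1.13, adjusted p = 0.124), of which 4 libraries lay above the uninjured 2.92 to 20 CPM and 1 just below it. Rtn4r read 0, 37, 61.4, 8.44 and 35 CPM (3.50 ± 1.33, adjusted p = 0.231), from nothing detected to near the cortex level. Plxna2 read 290, 122, 413, 318 and 97.6 CPM (2.13 ± 0.65, adjusted p = 0.145), all above the uninjured 36.9 to 89.2 CPM. These 4 genes were among those higher in uninjured cortex. Larger log2 fold changes than that of Plxna2 were also read for Ephb2 (2.94), Nrp1 (2.60) and Efnb2 (2.41), and none passed. Of these, Ephb2 was higher in uninjured cortex, while Nrp1 (adjusted p = 0.134) and Efnb2 (adjusted p = 0.118) were not called between the uninjured regions. The neuron marker sums of white matter zone 1 are given above as a range only, and their part in these values was not tested.

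The other white matter comparisons gave no call among the members. Of all genes 0% were called in zone 3, 0.0666% in zone 4, 0% in zone 5, 0.369% between zones 1 and 5 and 0.0333% in zones 1 to 3 under a joint label. The members at an unadjusted p under 0.05 numbered 4 of 30, 7 of 38, 4 of 34, 5 of 34 and 3 of 37 in that order. DESeq2 called 1 member between zones 1 and 5 and none in the other 4. Sema4d in zone 3 shows the scatter, with 2031, 102, 664, 216 and 294 CPM, the highest in a shallow library. In zone 5 the shallow replicate 3 listed Sema4d, Plxnb2 and Plxnb3 at 0.

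Whether the response differed between the regions was tested directly as an interaction. In zone 1, 3 of 43 members responded more positively in cortex and 1 more negatively, where 1.88% of 14601 genes were called. These 4 calls became 2 to 13 when 1 library was left out, 11 with DESeq2, 11 without the shallow libraries and 7 without the count filter. Plxnb3 differed by 4.37 ± 0.65 on the log2 scale (adjusted p = 0.00133) and Sema6d by 3.06 ± 0.55 (adjusted p = 0.00393). Efnb3 differed by 2.57 ± 0.68 (adjusted p = 0.0438) and Plxna2 by -2.36 ± 0.64 (adjusted p = 0.0474). Plxnb3 and Sema6d kept the call whichever of the 20 libraries was left out, while Efnb3 lost it in 15 of 20 fits and Plxna2 in 14. In the same test 11 of 16 oligodendrocyte markers responded more positively in cortex and none more negatively (median 2.98). Of 18 neuron markers 3 responded more negatively in cortex and none more positively. The part of these markers in the members' zone 1 differences was not tested.

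In zone 2 the responses of 5 of 43 members differed between the regions, where 2.75% of 13673 genes were called. Plxnb3 (3.00 ± 0.56, adjusted p = 0.00481), Sema6d (1.52 ± 0.31, adjusted p = 0.00803), Sema6a (2.29 ± 0.61, adjusted p = 0.0375) and Rtn4 (1.23 ± 0.28, adjusted p = 0.0171) responded more positively in cortex. Plxna2 (-1.96 ± 0.41, adjusted p = 0.00979) responded more positively in white matter. The call of Sema6a was lost in 12 of 20 fits that left out 1 library. With all IP libraries in 1 fit, 0 of these calls in zone 2 remained. Of 16 oligodendrocyte markers 13 responded more positively in cortex zone 2 and none more negatively. Of 18 neuron markers 7 responded more negatively and none more positively. The part of these markers was not tested here either. Rtn4 read 566, 553, 613, 535 and 675 CPM in cortex zone 2 and 874, 884, 729, 1084 and 477 CPM in white matter zone 2, so that cortex lay above its uninjured median and every white matter library below its uninjured range. Neither change passed within its own region (-0.96 ± 0.25 in white matter, adjusted p = 0.0591). No member was called in zones 3, 4 and 5 by edgeR, where 0%, 0.26% and 0% of all genes were called. DESeq2 called 2, 1 and 2 members there, and 7, 8 and 6 of 43 had an unadjusted p under 0.05.

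Nogo and netrin members gave no call against uninjured tissue in any zone. Rtn4 read 590, 678, 929, 645 and 778 CPM in cortex zone 1, where 3 of 5 libraries were above the highest uninjured value (0.52 ± 0.19, adjusted p = 0.14). Its white matter zone 1 libraries read 1971, 960, 801, 738 and 859 CPM, 4 of them below the uninjured range. Omg read 123, 172, 135, 130 and 184 CPM in cortex zone 1 (0.16 ± 0.24, adjusted p = 0.819) and 4.71, 111, 59.9, 147 and 79.5 CPM in white matter zone 1 (-1.37 ± 0.66, adjusted p = 0.352). Both sets reached into the uninjured range. Rtn4r read 33.3, 63.2, 35.6, 91.7 and 119 CPM in cortex zone 1 (-0.34 ± 0.33, adjusted p = 0.694). Unc5b read 53.9, 63.9, 7.32, 21.1 and 15.9 CPM there, with 3 libraries above the uninjured range and 2 inside it (1.26 ± 0.56, adjusted p = 0.261). Dcc ran from 2.14 to 52.9 CPM and Ntn1 from 1.19 to 5.48 CPM in cortex zone 1, and Ntn1 was too low to be tested in any cortex zone against uninjured tissue.

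Class means of all members, as mean log2(CPM + 1) per library with equal weight for each gene, carry no test here. The semaphorin-plexin mean was 5.99 ± 0.13 (SD, n = 5) in cortex zone 1 and 5.38 ± 0.12 in uninjured cortex, a difference of 0.61 with no overlap of libraries. In zones 2 to 5 the difference was 0.17, 0.05, 0.08 and -0.02, each with overlap. The slit-robo mean was 5.22 ± 0.37 in zone 1 and 5.91 ± 0.23 uninjured (-0.68, with overlap), and -0.67 against zone 5, without overlap. The ephrin mean was 4.74 ± 0.13 in zone 1 and 4.95 ± 0.06 uninjured (-0.21), with overlap, and -0.32 against zone 5, without overlap. Netrin and Nogo means differed by -0.02 and 0.14 in zone 1, within the spread of libraries.

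Between uninjured regions every class mean but those of netrin was higher in cortex. The difference was 0.83 for semaphorin-plexin, 1.83 for ephrin, 2.52 for slit-robo and 1.06 for Nogo, and -1.32 for netrin. Libraries overlapped for Nogo alone. With TMM-scaled totals the difference was 0.48 for semaphorin-plexin and 0.71 for Nogo. Gene by gene, 7 of 21 semaphorin-plexin members were higher in cortex and 5 lower (median log2 fold change 0.73). Of the 3 Nogo members 1 was higher and 2 lower (median -0.88, opposite in sign to the class mean). Of the 5 slit-robo members 2 were higher and 0 lower (median 1.42), below the difference of class means. Of 11 tested ephrin members 5 were higher and 2 lower (median 2.10), and of 2 tested netrin members only Unc5b was called, as lower. In white matter all 5 class means overlapped with uninjured tissue in every zone. The differences in zone 1 were 0.61 for semaphorin-plexin, 0.77 for ephrin, 0.57 for slit-robo, -1.26 for netrin and 0.20 for Nogo. In zone 2 they were 0.75, 0.68, 0.68, -0.22 and -0.28 in that order. The semaphorin-plexin difference in zone 1 thus equalled that of cortex zone 1, where libraries did not overlap. The SD over 5 libraries reached 2.02 for slit-robo in white matter zone 1 against 0.37 in cortex zone 1.

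**Figure D5:**
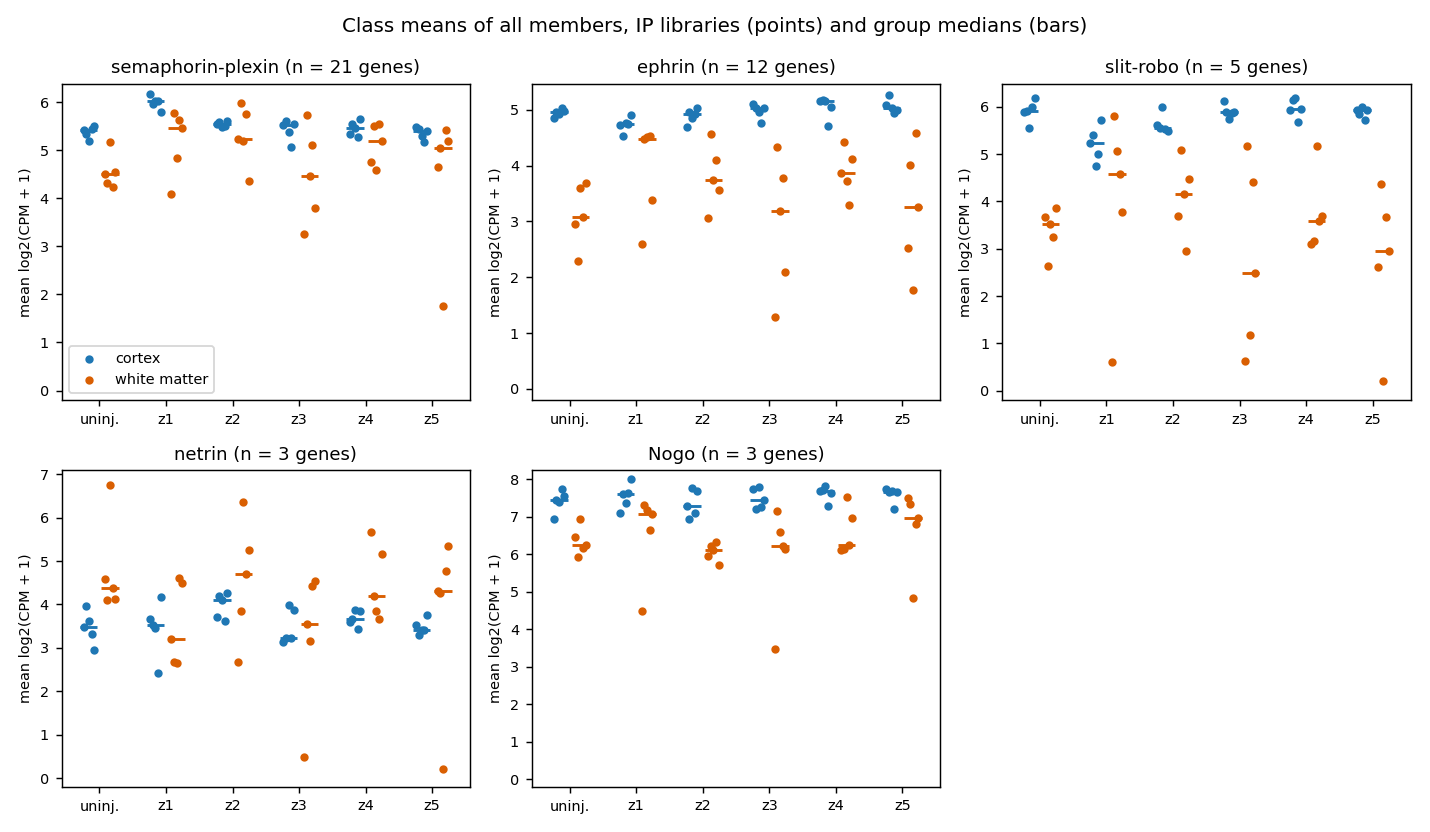
Mean log2(CPM + 1) over all members of each class (y axis) in every IP library of uninjured tissue and zones 1 to 5 (x axis), with cortex in blue, white matter in orange and bars at the group medians. The 5 cortex zone 1 points of the semaphorin-plexin class (5.80 to 6.17) lie above the 5 uninjured ones (5.20 to 5.50), and white matter points overlap in every class.

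IP and input were compared within a cohort to see which guidance transcripts were over-represented on the captured ribosomes. In uninjured cortex, 7 of 40 tested members were higher in IP and 4 lower, where 25.3% of 11280 genes were called. Plxnd1 (2.41 ± 0.54), Ephb6 (1.93 ± 0.42), Rtn4r (1.75 ± 0.48), Plxna1 (1.57 ± 0.30), Efnb2 (1.24 ± 0.34), Sema7a (1.00 ± 0.34) and Plxna4 (0.92 ± 0.24) were higher. Sema3c (-1.16 ± 0.37), Epha5 (-1.09 ± 0.23), Omg (-1.03 ± 0.30) and Rtn4 (-0.88 ± 0.26) were lower. Markers of both astrocytes and neurons were higher in uninjured cortex IP, such as Slc6a11 (1.57) and Aldh1l1 (1.54) of astrocytes and Slc17a7 (1.76) and Camk2a (1.28) of neurons. The neuron markers Vsnl1 (-1.78) and Syn1 (-1.31) were lower. The part of these cells in the members' differences between IP and input was not tested. In cortex zones 1 to 3 under a joint label, with 3 libraries a side, 12 of 40 were higher in IP and 6 lower, where 28.5% of 11476 genes were called. Plxna1, Plxna4, Plxnd1, Sema7a, Efnb2, Ephb6 and Rtn4r were again higher, with Sema4a, Plxnb1, Plxnb2, Efna5 and Slit3. Rtn4, Omg and Epha5 were again lower, with Sema3a, Epha7 and Slit2. Plxnb2 there had a log2 fold change of 2.04 ± 0.43 (adjusted p = 0.0046) from 39.8, 64.5 and 53 CPM in IP and 7.17, 13.4 and 12.4 CPM in input. Leaving out 1 library moved the number called from 11 to between 7 and 17 in uninjured cortex and from 18 to between 8 and 26 in zones 1 to 3. In uninjured cortex the call was lost in 7 of 10 such fits for Sema7a, in 4 for Sema3c and in 3 each for Rtn4 and Omg. In zones 1 to 3 it was lost in 5 of 6 for Slit2, in 4 each for Efnb2, Epha5 and Epha7, in 3 each for Sema4a, Slit3 and Rtn4r and in 2 each for Sema3a, Sema7a, Plxna4 and Efna5.

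No tested member passed edgeR's test between white matter IP and input. Of all genes 0.603% were called in uninjured tissue and 0% in zones 1 to 3. The members at an unadjusted p under 0.05 numbered 6 of 30 and 3 of 36, and DESeq2 called 1 and 0. Plxnb3 read 296, 352, 302, 199 and 340 CPM in uninjured white matter input and 277 to 439 CPM in IP, overlapping ranges with a log2 fold change of 0.78 ± 0.23 that did not pass (adjusted p = 0.158).

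Other genes of the same pathways were counted from 2 lists. Of 40 further family members (guidance genes outside the 44), 28 were tested in cortex zone 1 and 1 rose, 27 in zone 2 and 2 rose. Of 46 genes of intracellular guidance signalling, 2 rose in zone 1 among 46 tested and 4 in zone 2 among 45. No gene of either list fell in these zones. Of all genes tested, 5.3% were called in zone 1 and 3.64% in zone 2. The 6 with the lowest adjusted p in cortex were Mag, the myelin-associated glycoprotein that also binds Nogo receptors (2.91 ± 0.31 in zone 1, adjusted p = 6.9e-06, and 1.51 ± 0.28 in zone 2), and Dock1, an exchange factor for Rac (1.19 ± 0.31 and 1.17 ± 0.23), with Cntn2, an axonal adhesion molecule (0.82 ± 0.22 and 0.59 ± 0.17). In zone 2 alone, Abl1, a tyrosine kinase (0.84 ± 0.21), Mical1, an actin-oxidising enzyme downstream of plexins (1.99 ± 0.51), and Tnfrsf19, a co-receptor of the Nogo receptor (0.75 ± 0.22), also passed. In white matter the only call was Mag in zone 2, which fell by 1.45 ± 0.34 (adjusted p = 0.0423), where 0.941% of all genes were called. Mag is also on the list of oligodendrocyte markers counted above, so its changes are not separate from theirs.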

How the data were processed

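Frozen brain sections were laser captured, ribosomes immunoprecipitated and paired-end libraries sequenced on an Illumina HiSeq, per the labels' protocols. The deposited values were raw read counts per Ensembl gene made by the authors, and the submitters' processing notes name GRCm38, or mm10, as the build. Aligner, counter, annotation release and strand setting were not given in the sources used here, so overlapping and antisense genes cannot be separated.

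Columns of the count table were matched to samples by reading L as white matter, M as cortex and S as sham, a reading the table itself does not spell out. The series text speaks of 4 to 5 samples per zone, while labels and table hold 5 in every zone.

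The counts of mt-Rnr1, mt-Rnr2, Gm42418, CT010467.1, Gm23935 and Lars2 were set aside in every library before CPM, library sizes and tests. Each comparison was fitted on the whole table with edgeR 4.0.16 in R 4.3.3 (robust quasi-likelihood test, TMM factors, genes kept by filterByExpr at min.count 10 and min.total.count 15), on the libraries of that comparison alone, and p-values were adjusted by Benjamini-Hochberg over all genes tested, with 0.05 as the threshold. SE was the fold change over the square root of F. The region difference in response was an interaction term. DESeq2 1.42.0 served as an alternative test and for size factors. Other alternatives were no count filter, a fit over all IP libraries, a replicate block, leaving out the shallow libraries and leaving out each library in turn.

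Values in every library are given for members called in a zone comparison, for up to 12 called between uninjured regions by lowest adjusted p and for the Nogo and netrin members. Up to 6 called genes per region, over both lists of further pathway genes together, are named by lowest adjusted p. Naming the members called elsewhere was decided after their values were seen. The members and gene lists were chosen with earlier results of these data known. Replicate numbers recur across groups. In no comparison did every same-numbered pair deviate together with a correlation over 0.1, and they were not taken as pairs. This rule fails when any single pair falls short, so it cannot exclude that same-numbered libraries were paired. All 152 pairs of libraries within a group differed beyond counting noise (chi-square divided by its degrees of freedom at least 3.16). Intervals cover counting error only. Exon lengths and coordinates came from a GENCODE annotation of GRCm38, promoter windows from RefSeq on GRCm38.p6.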

Additional observations from a re-analysis of the deposited data

Results flagged for a closer look

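In 24 of 192 groups of 5 libraries (16 genes), 1 library stood apart from the other 4 by more than Dixon's 95% limit. Chance passes that limit in about 1 in 20 groups of normally distributed values. CPM need not follow that distribution and the groups reuse the same libraries across genes, so the 24 groups cannot be read against that rate. White matter held 18 of these groups and cortex 6, with 96 groups examined in each region. In cortex the libraries that stood apart were Sema6a at 222 CPM in zone 2 replicate 5, Plxnb2 at 314 CPM in zone 1 replicate 2 and Unc5b at 18.7 CPM in zone 4 replicate 5. Ntn1 stood apart at 0 CPM in uninjured replicate 5 and at 3.64 CPM in zone 2 replicate 4, and Rtn4r at 127 CPM in uninjured replicate 5.

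In white matter, 6 of the 18 values came from shallow libraries. Zone 1 replicate 1 gave 317 CPM for Ephb1, 434 CPM for Unc5b and 1971 CPM for Rtn4, and zone 5 replicate 3 gave 0 CPM for Sema4d and 2912 CPM for Plxnb1. The shallow zone 3 replicate 1 gave 1463 CPM for Sema6a. Further values were 276 CPM for Sema6a in uninjured replicate 4, 1231 CPM for Sema6d in zone 3 replicate 3, 336 CPM for Plxna2 in zone 5 replicate 2 and 518 CPM for Plxnb2 in zone 4 replicate 4. Sema4f stood apart at 4.51 CPM in zone 4 replicate 2 and Ephb1 at 442 CPM in zone 5 replicate 1. Among netrin and Nogo genes these were Ntn1 at 49.6 CPM in uninjured replicate 3, Dcc at 153 CPM in zone 2 replicate 3 and 103 CPM in zone 4 replicate 3, Rtn4r at 9.93 CPM in zone 3 replicate 2 and 33.9 CPM in zone 4 replicate 3, and Omg at 327 CPM in zone 2 replicate 4.

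The response to stroke differed between the regions by the interaction test for 4 members in zone 1 and 5 in zone 2. On the log2 scale, cortex minus white matter, the zone 1 differences were 4.37 for Plxnb3, 3.06 for Sema6d, 2.57 for Efnb3 and -2.36 for Plxna2. The zone 2 differences were 3.00 for Plxnb3, 2.29 for Sema6a, 1.52 for Sema6d, 1.23 for Rtn4 and -1.96 for Plxna2.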

How the results depend on the processing

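With DESeq2 in place of edgeR, members called numbered 5 in white matter zone 1, 5 in zone 2, 1 between zones 1 and 5 and 1 between uninjured IP and input, and 11, 10, 2, 1 and 2 in the region differences of zones 1 to 5. Without the count filter they numbered 2 in white matter zone 1, 3 in zone 2, 1 in zone 3, 1 in zone 5, 2 between zones 1 and 5, 2 in zones 1 to 3 under a joint label and 7 in the zone 1 region difference. A fit over all IP libraries gave 11 members in cortex zone 1, 18 between cortex zones 1 and 5, 0 in white matter zone 2, and 0 and 1 in the region differences of zones 2 and 3. DESeq2's size factors gave 0 in white matter zone 2. Without the shallow libraries the counts were 4 in white matter zone 1 and 11 and 1 in the region differences of zones 1 and 3. With the replicate number as a block, 1 member was called in white matter zone 1, and Robo1 between uninjured regions (1.49) and Efnb3 (2.56) and Plxna2 (-2.12) in the zone 1 region difference lost their call. With TMM-scaled totals the class-mean difference between uninjured regions was 0.48 for semaphorin-plexin (0.83 as reported) and 0.71 for Nogo (1.06 as reported). Leaving out 1 library moved the members called to 2 to 5 in cortex zone 2, 7 to 17 and 8 to 26 in cortex IP against input (uninjured, zones 1 to 3), 0 to 3 in white matter zone 1, 0 to 1 in zone 2, 0 to 1 between zones 1 and 5, 0 to 1 in uninjured white matter IP against input, and 2 to 13, 4 to 8 and 0 to 2 in the region differences of zones 1, 2 and 3. No called member changed direction in the settings run. Small class-mean differences, which carry no test, did change sign when 1 library was left out, such as semaphorin-plexin in white matter zone 3 (-0.39 to 0.23) and netrin in cortex zone 1 (-0.20 to 0.24). Over the whole table, cortex zone 1 had 664 called genes, or 2459 with all IP libraries in the fit, and DESeq2 called 591 genes in white matter zone 1 (edgeR 47). DESeq2's size factors moved the median log2 fold change of all genes from 0.04 to 0.19 in white matter zone 1 and from 0.08 to -0.17 in the zone 1 region difference. The causes were not tested.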
